A study of Mus musculus with 8 samples.

Results

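The guanylate-binding proteins are a family of interferon-inducible GTPases, and their transcripts were measured in the cortex and hippocampus of mice carrying a poly(GR) fusion protein. The members were the rows of the deposited gene table whose symbol was Gbp2, Gbp3, Gbp4, Gbp5, Gbp6, Gbp7, Gbp8, Gbp9 or Gbp10. Of these 9 listed genes 8 matched a row by symbol, out of 43346 rows, and the symbol Gbp10 matched none. All 8 rows had enough reads to be tested, 4 of them on chromosome 3 and 4 on chromosome 5.

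Total RNA was sequenced from 8 mice aged 1.5 months, each with its own library. In the 4 mice labelled GFP the construct was enhanced green fluorescent protein (EGFP). In the 4 mice labelled GFP-GR100 the EGFP was fused in frame to 100 glycine-arginine (GR) dipeptide repeats, a product of the C9orf72 repeat expansion of frontotemporal dementia and amyotrophic lateral sclerosis. Both groups thus carried an EGFP construct from an adeno-associated virus (AAV) vector plasmid, and no mice without a construct entered the comparison. The promoter, the route of delivery, the strain and the cells that took up the vector are not stated by the labels, and the level of the construct itself was not analysed here. Libraries 1 and 2 of each group came from females and libraries 3 and 4 from males. The library numbers are names only and pair no animals between groups.

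Guanylate-binding proteins bind and hydrolyse GTP and belong to the dynamin superfamily. Interferon gamma is their classical inducer, and type I interferons raise several of them as well. They gather on the membranes of vacuoles that hold parasites or bacteria and on bacteria in the cytosol, together with the immunity-related GTPases, and they help to switch on inflammasomes and the caspase that senses bacterial lipopolysaccharide. Some members carry a prenyl lipid at the carboxyl end, which ties them to membranes. In brain tissue they are known as interferon-response genes of microglia, astrocytes and endothelium.

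The 8 rows do not all stand for a single gene, and this bears on what each name below means. Positions are on mouse build mm10, as in the deposited table. The row named Gbp5 (ENSMUSG00000040264, chromosome 3, 142496934 to 142619179, listed length 5844 bases) runs from the first base of the RefSeq Gbp5 locus to the last base of the RefSeq Gbp2b locus, and it encloses the rows of Gbp7 and Gbp3. GENCODE M21 gives its identifier to Gbp2b. The row named Gbp6 (ENSMUSG00000079362, chromosome 5, 105215699 to 105293699, listed length 7842 bases) covers 100.0% of the RefSeq Gbp10 locus and 91.4% of the RefSeq Gbp6 locus. Its reads could therefore come from either gene. GENCODE M21 gives the identifier of this row to Gm43302. The coding sequences of Gbp6 and Gbp10 in GENCODE M21 were identical at 98.4% of 1833 aligned bases, the highest identity of any pair in the family.

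The rows Gbp8 (105014153 to 105139540), Gbp9 (105078394 to 105139539) and Gbp4 (105115767 to 105139586) overlap on the minus strand of chromosome 5. Their GENCODE M21 exons shared 60 or 61 bases. Coding identity was 90.3% for Gbp8 with Gbp9, 92.8% for Gbp4 with Gbp8 and 90.2% for Gbp4 with Gbp9. Of all 50-base stretches of the GENCODE M21 transcripts, 73.27% of those of Gbp10 and 45.95% of those of Gbp6 also stood in the other gene. The share that stood in any other family gene was 18.12% for Gbp8, 8.05% for Gbp9, 7.53% for Gbp4, 3.75% for Gbp3, 2.26% for Gbp7, 2.03% for Gbp2 and 0.0% for Gbp5. How the authors counted reads that fit several copies is not stated by the labels. The rows Gbp5 and Gbp6 thus each cover more than 1 locus. By 50-base stretches, Gbp8 shares the most sequence with its relatives among the other 6 rows and Gbp2 the least, close to Gbp7. Coding identity gave another order, with 82.5% for Gbp2 with Gbp2b and 78.3% for Gbp3 with Gbp7.

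Interferon signalling acts on short elements in promoters. Those of the members on chromosome 3 are shown. The promoters of the members on chromosome 5 were not available and were not searched. The sequences come from the RefSeq promoter table on GRCm38.p6, plus strand, written 5′ to 3′ up to the base before the start site. For Gbp2 the sequence stops 31 bases earlier, at 142620631. Capitals mark matches to the core of the interferon-stimulated response element (ISRE, GAAANNGAAA, here always on the minus strand, so it reads as TTTC, any 2 bases, TTTC) and to the gamma-activated site (GAS, TTCNNNGAA). Both strands were searched. The order is that of the locus, from chr3:142496684-142496933 for Gbp5 through chr3:142530086-142530335 for Gbp7 and chr3:142559794-142560043 for Gbp3 to chr3:142620413-142620631 for Gbp2.
Gbp5: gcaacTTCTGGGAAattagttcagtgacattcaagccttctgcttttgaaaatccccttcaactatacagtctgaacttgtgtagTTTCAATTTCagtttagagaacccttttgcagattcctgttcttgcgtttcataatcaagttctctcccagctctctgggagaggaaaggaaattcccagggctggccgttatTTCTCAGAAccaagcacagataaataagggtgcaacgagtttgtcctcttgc
Gbp7: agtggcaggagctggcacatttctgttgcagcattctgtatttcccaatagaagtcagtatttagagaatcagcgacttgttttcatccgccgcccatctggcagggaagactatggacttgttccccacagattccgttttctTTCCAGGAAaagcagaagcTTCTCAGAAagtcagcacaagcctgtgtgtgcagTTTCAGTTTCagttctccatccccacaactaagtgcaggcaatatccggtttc
Gbp3: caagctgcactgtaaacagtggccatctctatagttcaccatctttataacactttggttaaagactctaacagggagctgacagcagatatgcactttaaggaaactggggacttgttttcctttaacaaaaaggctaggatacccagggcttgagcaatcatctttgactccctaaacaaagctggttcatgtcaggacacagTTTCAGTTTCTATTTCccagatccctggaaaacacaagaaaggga
Gbp2: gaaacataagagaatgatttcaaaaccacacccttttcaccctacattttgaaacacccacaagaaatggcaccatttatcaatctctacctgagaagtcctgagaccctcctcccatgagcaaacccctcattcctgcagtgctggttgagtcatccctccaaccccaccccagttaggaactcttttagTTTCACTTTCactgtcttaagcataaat

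The ISRE core stood 165 bases before the start site of Gbp5, 53 before that of Gbp7 and 59 before that of Gbp2. In Gbp3 a pair of overlapping matches began 45 and 39 bases before the start. GAS matches stood 245 and 52 bases before the start of Gbp5 and 106 and 87 before that of Gbp7. The table holds 5 windows of 300 bases for the members, because Gbp3 has a second start, whose window held neither motif. The ISRE core was thus in 4 of 5 windows of the chromosome 3 members, against 3.44% of all 32851 windows in the table. The GAS was in 2 of 5, against 8.3%, and both motifs were together in 2 of 5, against 0.454%. The promoter of Gbp2b, whose locus lies in the row named Gbp5, held an ISRE core 137 bases before its start. These are matches of letters and were not tested for binding.

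In GFP-GR100 mice 4 of the 8 members rose: Gbp3, Gbp7, Gbp9 and Gbp5, by 2.50-fold to 4.87-fold. The call rule was an adjusted p under 0.05 by edgeR's quasi-likelihood test with sex as a covariate, adjusted by Benjamini-Hochberg over 20987 genes. By that rule 2.19% of all genes tested were called higher, and no member was called lower. Gbp2, Gbp4, Gbp6 and Gbp8 did not pass. Fitted changes were positive in 8 of 8 members, and their median on the log2 scale was 1.39, while the median over all tested genes was -0.02. In 6 members each GFP-GR100 library lay above each GFP library, which 5.03% of the genes tested also did; the exceptions were Gbp2 and Gbp8. Levels below are in CPM (read counts relative to library size), normalised by edgeR's trimmed mean of M-values (TMM), and fold changes and standard errors (SE) are from the fit.

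**Figure D1:**
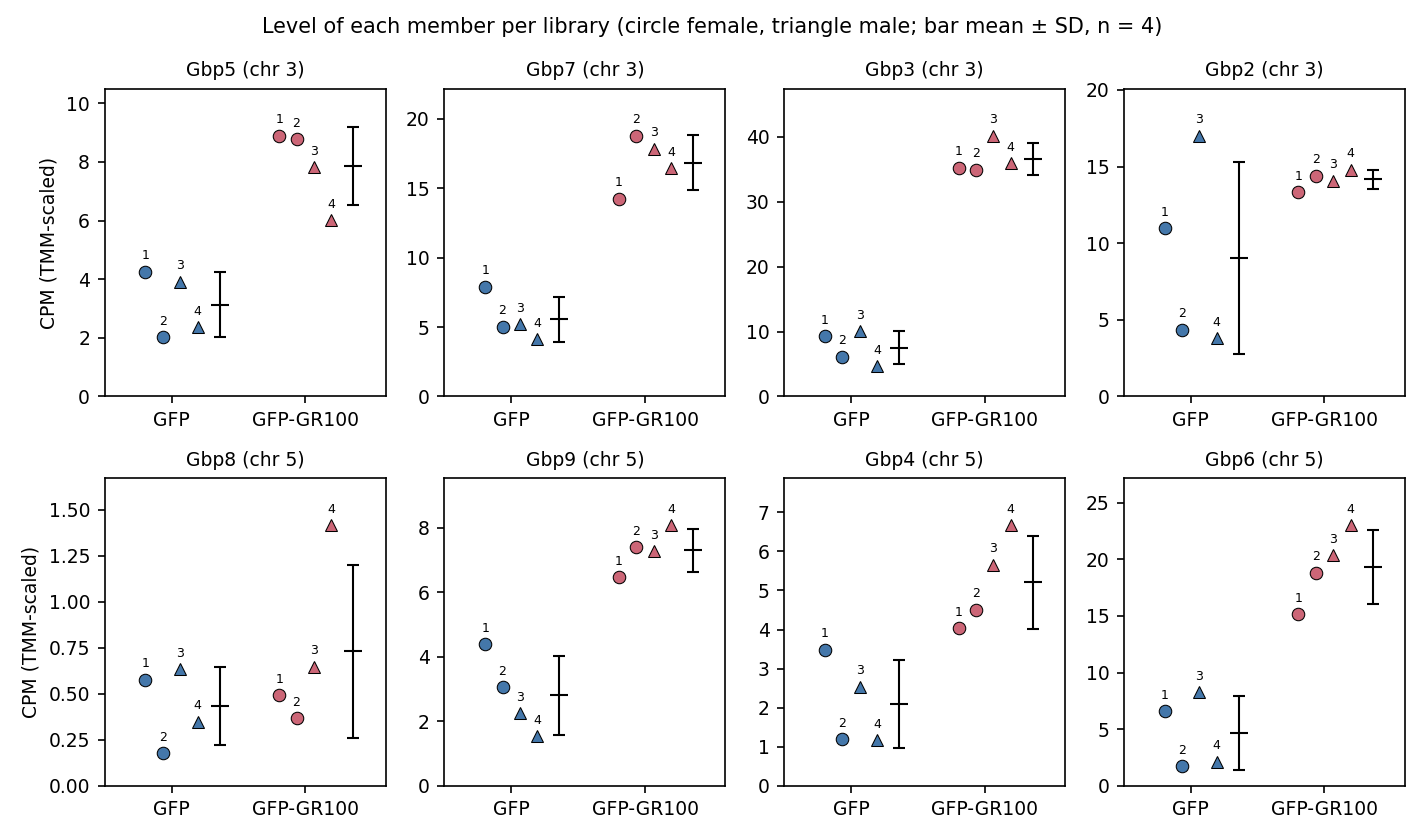
Level of each of the 8 members in CPM (linear axis from 0) in the 4 GFP and 4 GFP-GR100 libraries, numbered (females as circles, males as triangles), with the mean ± SD beside them. The groups do not overlap except in Gbp2 and Gbp8, and in most panels GFP 1 and GFP 3 sit above GFP 2 and GFP 4.

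Among the members on chromosome 3, Gbp3 changed most. Gbp3 takes part in the response to bacterial lipopolysaccharide in the cytosol. In the GFP libraries 1 to 4 it stood at 9.30, 6.13, 10.01 and 4.61 CPM, and in GFP-GR100 1 to 4 at 35.2, 34.9, 40.1 and 35.9 CPM. The lowest GFP-GR100 library was thus far above the highest GFP library, and the GFP-GR100 libraries lay closer together. The means were 7.51 ± 2.56 CPM (SD, n = 4) and 36.6 ± 2.42 CPM (SD, n = 4). The fitted increase was 4.87-fold, a log2 fold change of 2.28 (SE 0.24), with an adjusted p of 0.00176. Under 18 alternatives of processing and sample choice its adjusted p stayed at or below 0.0201.

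Gbp7, a member linked to the oxidative and autophagic attack on vacuoles, had the smallest p in the family. It stood at 7.90, 5.04, 5.22 and 4.12 CPM in the GFP libraries and at 14.2, 18.8, 17.9 and 16.5 CPM in the GFP-GR100 libraries. GFP 1 was the highest control, and it lay below all GFP-GR100 libraries. The means were 5.57 ± 1.63 CPM and 16.8 ± 1.98 CPM (SD, n = 4 each). The increase was 3.06-fold, a log2 fold change of 1.62 (SE 0.17), with an adjusted p of 0.000501, and the adjusted p was at most 0.00688 under the 18 alternatives.

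The row named Gbp5, which may also hold Gbp2b reads, rose 2.50-fold. Gbp5 is a prenylated member that promotes assembly of the NLRP3 inflammasome. The GFP libraries had 4.25, 2.01, 3.91 and 2.36 CPM and the GFP-GR100 libraries 8.89, 8.77, 7.82 and 6.02 CPM. The groups did not overlap, and the 2 male GFP-GR100 libraries were the lower ones of that group. On the log2 scale the change was 1.32 (SE 0.24) with an adjusted p of 0.0154. This call was lost in 3 of 18 alternatives, with an adjusted p of 0.0528 when GFP 4 was left out, 0.0507 when GFP-GR100 2 was and 0.0765 when GFP-GR100 3 was.

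Gbp2, a prenylated member that gathers on Toxoplasma vacuoles, did not pass the test. It stood at 10.98, 4.33, 17.0 and 3.80 CPM in the GFP libraries and at 13.3, 14.4, 14.1 and 14.8 CPM in the GFP-GR100 libraries. GFP 3 was the highest library of all 8, while GFP 2 and GFP 4 were the lowest. The GFP libraries spanned a 4.48-fold range and the GFP-GR100 libraries a 1.11-fold range. Its fitted log2 change was 0.67 (SE 0.52), with an adjusted p of 0.57. Without GFP 3 the log2 change was 1.29 and the adjusted p 0.216. Under the 18 alternatives the adjusted p ran from 5.49e-06 to 0.764, the former without a filter on low counts and every other value above 0.05.

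On chromosome 5, Gbp9 rose 2.74-fold. It is among the members found on parasite vacuoles. The GFP libraries had 4.38, 3.05, 2.24 and 1.53 CPM and the GFP-GR100 libraries 6.46, 7.39, 7.27 and 8.08 CPM. Each female GFP library was above each male one, an order found in no other member. The means were 2.80 ± 1.23 CPM and 7.30 ± 0.66 CPM (SD, n = 4 each). The log2 fold change was 1.45 (SE 0.24) with an adjusted p of 0.00905, and the adjusted p was at most 0.0382 under the 18 alternatives.

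The row named Gbp6, which spans the Gbp6 and Gbp10 loci, had the second largest fold change of the family and still did not pass. Both genes encode proteins recruited to parasite vacuoles. The GFP libraries had 6.56, 1.71, 8.28 and 2.13 CPM and the GFP-GR100 libraries 15.2, 18.8, 20.4 and 23.0 CPM. The groups did not overlap, but GFP 1 and GFP 3 were several times higher than GFP 2 and GFP 4. The log2 fold change was 2.05 (SE 0.56), or 4.15-fold, with an adjusted p of 0.179. It passed in 4 of 18 alternatives, among them DESeq2 with an adjusted p of 0.0116. The range was 1.44e-53 to 0.411, the former in edgeR's test without a filter on low counts. There the log2 fold change was 2.07, so the p changed and the effect hardly did.

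Gbp4 has been described as a regulator of IRF7, a transcription factor of the type I interferon response. It stood at 3.48, 1.19, 2.53 and 1.17 CPM in the GFP libraries and at 4.03, 4.50, 5.66 and 6.67 CPM in the GFP-GR100 libraries. The groups did not overlap, although GFP 1 came close to GFP-GR100 1. The log2 fold change was 1.31 (SE 0.38), or 2.48-fold, with an adjusted p of 0.155. It passed in 6 of 18 alternatives, among them the fit without GFP 1 (adjusted p 0.00261) and the fit with the share of rRNA reads as a covariate (0.0401). The range was 2.56e-12 to 0.336, the former in edgeR's test without a filter on low counts.

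Gbp8 was the lowest member, with 13 to 97 reads per library. The GFP libraries had 0.58, 0.18, 0.63 and 0.35 CPM and the GFP-GR100 libraries 0.49, 0.37, 0.65 and 1.42 CPM. The groups overlapped, and GFP-GR100 4 alone stood above the rest. The log2 fold change was 0.67 (SE 0.41) with an adjusted p of 0.449, and no alternative called it.

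Summed over their 4 rows, the members of chromosome 3 came to 32.4, 17.5, 36.1 and 14.9 CPM in the GFP libraries and to 71.7, 76.9, 79.9 and 73.2 CPM in the GFP-GR100 libraries. The members of chromosome 5 came to 15.01, 6.13, 13.7 and 5.17 CPM and to 26.2, 31.1, 34.0 and 39.2 CPM. Neither pair of groups overlapped. The sums were 2.99-fold and 3.25-fold higher in GFP-GR100, with log2 fold changes of 1.58 (SE 0.31) and 1.70 (SE 0.41). When each sum replaced its rows in the fit over 20981 features, the adjusted p was 0.0679 for chromosome 3 and 0.132 for chromosome 5. The sum on chromosome 3 passed without GFP 3 (0.0119), without GFP 4 (0.0147), with a minimum mean of 1 CPM (0.0499) and without a filter on low counts. The sum on chromosome 5 passed without that filter and in no other of its alternatives.

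By the ratio of the highest to the lowest library, the GFP group varied more than the GFP-GR100 group in 7 of 8 members. The SD in CPM was larger in GFP for Gbp2, Gbp3 and Gbp9 and larger in GFP-GR100 for the other members. The ratio of the highest to the lowest GFP library had a median of 2.93 over the members, against 1.42 over 20861 tested genes with no zero. In the GFP-GR100 libraries the same medians were 1.40 and 1.33. GFP 1 exceeded both GFP 2 and GFP 4 in 8 of 8 members. GFP 1 and GFP 3 together exceeded both GFP 2 and GFP 4 in 7 of 8, the exception being Gbp9, and 9.57% of all genes showed this order. GFP 3 stood at 2.67 times the mean of the other GFP libraries for Gbp2 and 2.39 times for Gbp6. Without GFP 3 the same 4 members were called. This order of the libraries was described after the values had been seen.

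The markers of other cells moved with these libraries as follows, and their part in the results was not tested. Of 7 tested T and natural killer cell markers 6 had GFP 1 and GFP 3 above GFP 2 and GFP 4: Cd3d, Cd3e, Cd3g, Cd8a, Nkg7 and Il2rb. Il2rb, an interleukin receptor subunit, was the highest of these, at 1.04, 0.32, 1.09 and 0.43 CPM. Cd4, which microglia can also express, made up most of the summed level and did not show this order, at 13.5, 14.2, 13.7 and 12.9 CPM. The other 9 genes of the list summed to 2.70, 0.58, 3.94 and 0.87 CPM in the GFP libraries and to 2.16, 2.67, 3.41 and 2.07 CPM in the GFP-GR100 libraries, so the groups overlapped. The choroid plexus markers showed the order in 5 of 5. The summed level of these 5 choroid plexus markers was 301, 174, 358 and 126 CPM in the GFP libraries, so GFP 1 and GFP 3 were the highest here too. In the GFP-GR100 libraries it was 86.4, 31.4, 51.4 and 34.7 CPM, and 1 of the 5 markers, Folr1, fell. The 10 microglial markers summed to 395, 371, 505 and 382 CPM in the GFP libraries and to 644, 685, 721 and 690 CPM in the GFP-GR100 libraries. Of these microglial markers 8 of 10 rose and none fell, with a median log2 fold change of 0.71. The rise was uneven, from Trem2 at 1.42 to P2ry12 at 0.21. P2ry12 (adjusted p 0.33) and Tmem119 (log2 fold change 0.41, adjusted p 0.151) did not pass edgeR's test. GFP 1 and GFP 3 were above GFP 2 and GFP 4 in 5 of the 10. The order was in 3 of 7 monocyte and neutrophil, 1 of 8 endothelium, 1 of 5 border macrophage, 1 of 5 oligodendrocyte and 1 of 4 fibroblast markers. No marker showed it among 8 of astrocytes, 8 of excitatory neurons, 6 of inhibitory neurons, 5 of red blood cells and 3 of B cells. In tissue RNA, more microglia and more RNA per microglial cell cannot be told apart. CPM is also relative to library size, so it gives no amount per brain. Brain weights in the labels were 111.4 to 126.6 mg in GFP mice and 71.9 to 85.1 mg in GFP-GR100 mice. Their part in these levels was not tested.

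**Figure D2:**
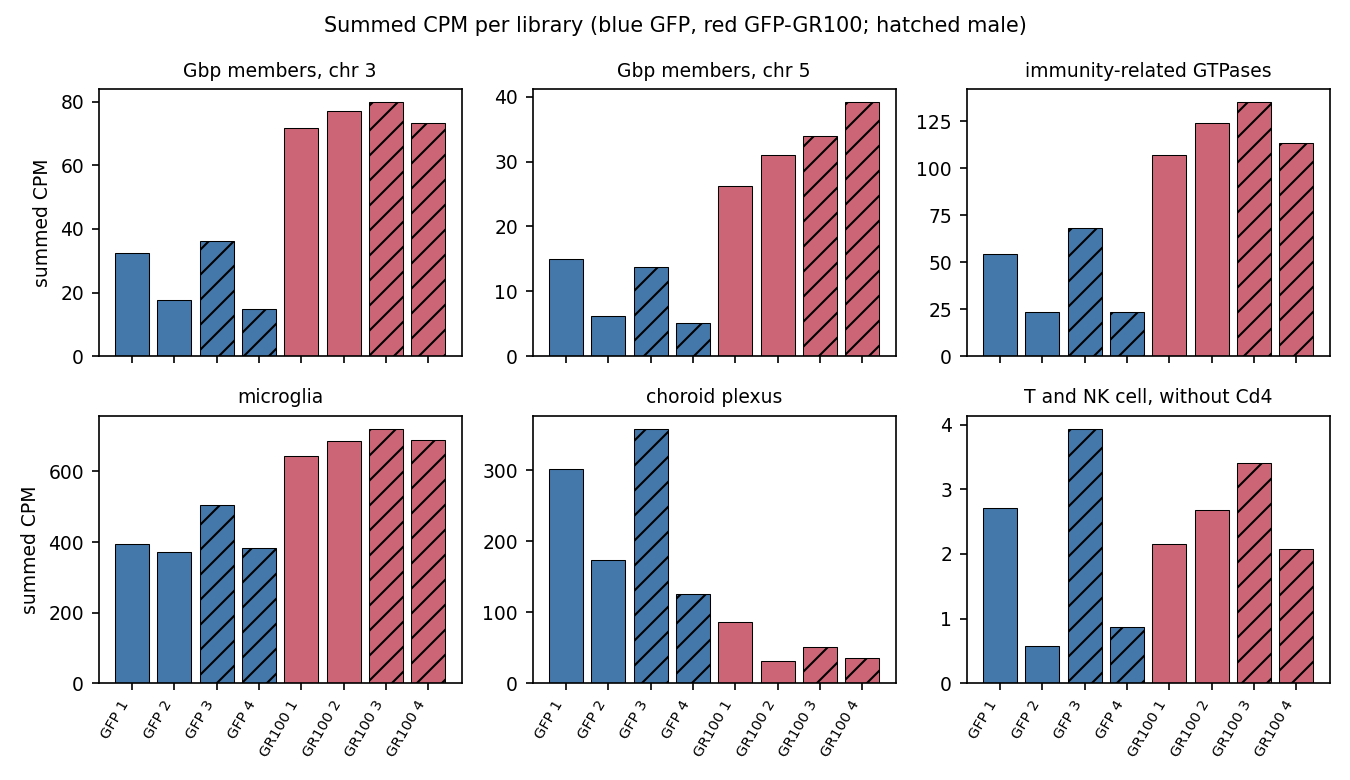
Summed CPM per library (linear axes from 0) of the Gbp members on each chromosome, the immunity-related GTPases, 10 microglial markers, 5 choroid plexus markers and 9 T and natural killer (NK) cell markers without Cd4, in GFP (blue) and GFP-GR100 (red) libraries, hatched for males. GFP 1 and GFP 3 exceed GFP 2 and GFP 4 in every panel. In the list of immunity-related GTPases, which includes Gvin1, they stand at 54.5 and 68.1 against 23.4 and 23.8 CPM. In the microglial markers they stand at 395 and 505 against 371 and 382 CPM. The groups overlap in the T and NK cell markers.

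Further facts of the whole table touch these results. Library totals ran from 65880460 to 89113010 counts, so 3 counts correspond to 0.0328 to 0.0495 CPM. The share of counts in the 3 rows that collect ribosomal RNA was 11.4%, 6.74%, 3.80% and 3.54% in the GFP libraries and 3.20%, 2.76%, 8.77% and 9.83% in the GFP-GR100 libraries. With that share as a covariate Gbp3, Gbp5, Gbp7 and Gbp9 were called as before. Without GFP 3 and GFP-GR100 4 together these 4 were again called. Markers of T and natural killer cells (0 of 7 tested passed; sums with Cd4 of 13.8 to 17.6 CPM in GFP and 16.3 to 21.4 in GFP-GR100), B cells (0 of 3), endothelium (0 of 8) and border macrophages (0 of 5) were not called. Neither were those of fibroblasts (0 of 4), red blood cells (0 of 5), excitatory neurons (0 of 8), inhibitory neurons (0 of 6) and oligodendrocytes (0 of 5). Of 7 monocyte and neutrophil markers 2 rose, Csf3r and Plac8, with sums of 8.82 to 14.4 CPM in GFP and 17.7 to 26.8 in GFP-GR100. Of 8 astrocyte markers 1 rose, Gfap. No marker was at 0 in all libraries.

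Levels between genes were compared per length, on the authors' RPKM (reads relative to gene length and library size). In GFP mice the order was Gbp2 at 3.51 ± 2.49 RPKM (SD, n = 4), Gbp3 at 2.26 ± 0.77, Gbp7 at 0.97 ± 0.24, Gbp9 at 0.73 ± 0.29, Gbp6 at 0.58 ± 0.41, Gbp5 at 0.52 ± 0.18, Gbp4 at 0.45 ± 0.23 and Gbp8 at 0.17 ± 0.08. Neighbours in this order overlapped in their libraries except Gbp3 and Gbp7. In GFP-GR100 mice Gbp3 came first at 11.5 ± 0.58 RPKM, and Gbp2 second at 5.76 ± 0.27. They were followed by Gbp7 at 3.10 ± 0.37, Gbp6 at 2.52 ± 0.41, Gbp9 at 2.02 ± 0.18, Gbp5 at 1.38 ± 0.25, Gbp4 at 1.17 ± 0.26 and Gbp8 at 0.30 ± 0.19. Here the pairs of Gbp7 with Gbp6, Gbp6 with Gbp9 and Gbp5 with Gbp4 overlapped, and the remaining neighbours did not. Gbp2 and Gbp3 changed places between the groups, though their ranges overlapped in GFP mice. For Gbp5 and Gbp6 the length used is that of a row covering more than 1 locus, which lowers the value per length if only 1 of the loci was read.

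**Figure D3:**
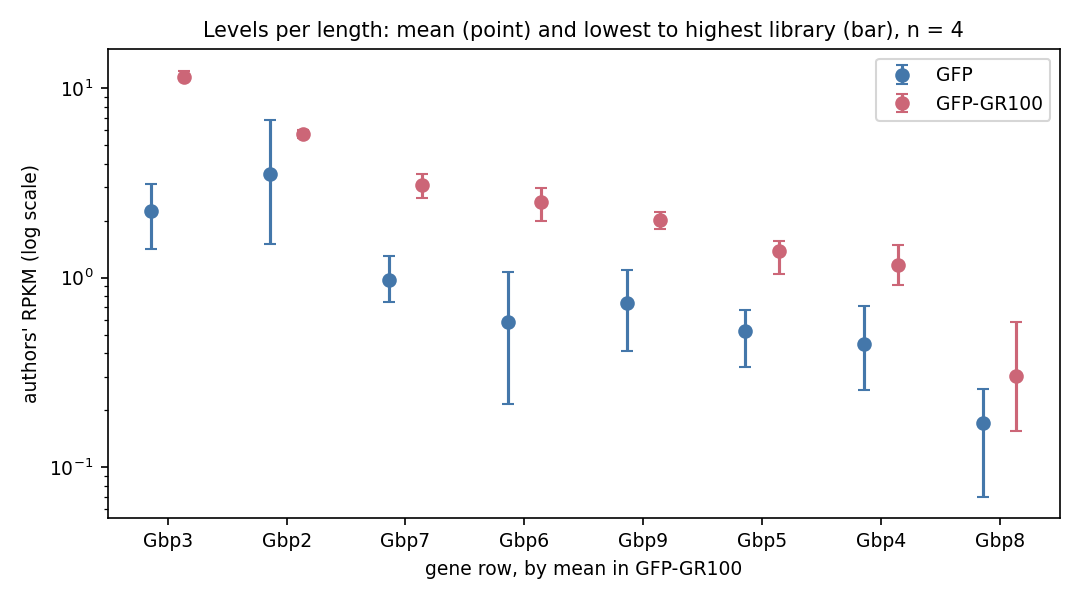
Authors' RPKM of each member (log axis), ordered by the mean in GFP-GR100, as the mean (point) and the lowest to the highest of 4 libraries (bar). Gbp3 leads in GFP-GR100 at 11.5 RPKM, and the bars of Gbp2 and Gbp8 overlap between the groups.

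Within each sex, with 2 libraries a group, the test passed for Gbp7 in females and for Gbp3, Gbp7 and Gbp9 in males. That is 1 of 8 members in females, where 0.829% of all genes were called higher, and 3 of 8 in males, where the share was 5.56%. The difference between the sexes was called for none of the 8 members and for 0.0524% of all genes, either direction. By unadjusted p under 0.05, 1 member, Gbp9, and 3445 genes differed. Gbp9 had a log2 fold change of 0.90 in females (adjusted p 0.11) and 2.02 in males (adjusted p 0.00065). The male minus female difference was 1.12 (SE 0.32) with an adjusted p of 0.136 in edgeR's interaction test. The same difference was 1.11 with an adjusted p of 0.0398 in DESeq2 and 1.08 with 0.0116 without a filter on low counts. Those 2 settings called 567 and 1353 genes for the sex difference, against 11 in the reported fit. In edgeR's test the adjusted p for Gbp9 was 0.137 with median-of-ratios scaling. With each library left out it was 0.0776 to 0.496, so it passed in none of these. Its female GFP mean was 3.72 CPM and its male GFP mean 1.88 CPM, while the GFP-GR100 means were 6.92 and 7.67 CPM.

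Gbp6 had nearly the same log2 fold change in females and males, at 2.05 in each. For Gbp4 it was 0.88 in females and 1.73 in males, for Gbp8 0.22 and 1.06, for Gbp7 1.35 and 1.88, and for Gbp3 2.19 and 2.38. Gbp5 and Gbp2 had the larger value in females, at 1.50 against 1.14 and 0.86 against 0.47. None of these differences between the sexes passed the test, with adjusted p from 0.415 for Gbp7 to 1 for Gbp6.

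**Figure D4:**
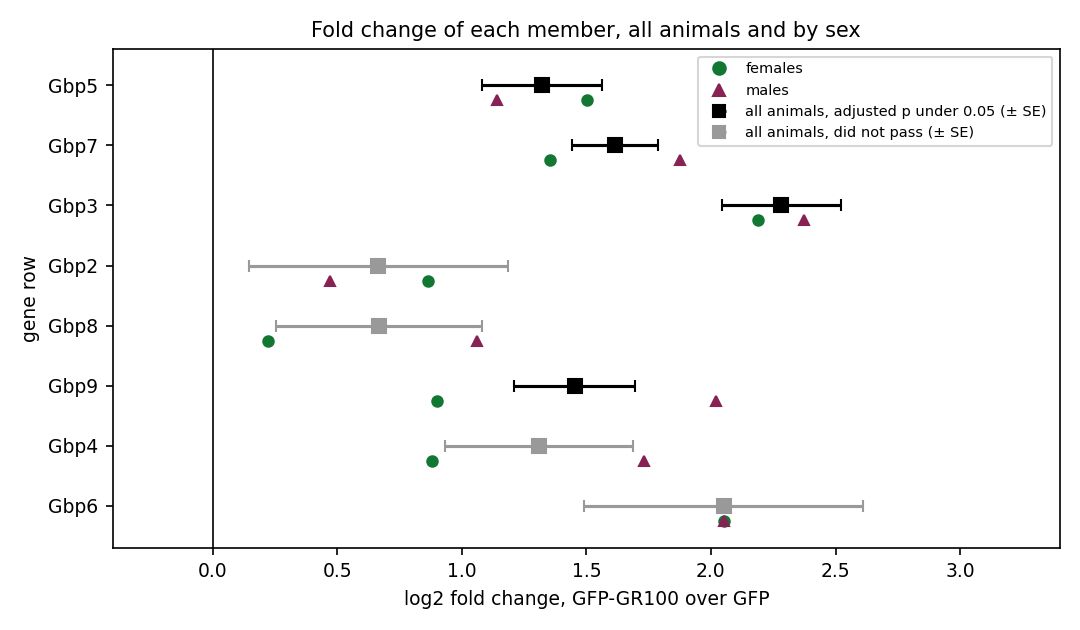
Change of each member in GFP-GR100 relative to GFP on the log2 scale (linear axis), as squares with ± SE for all 8 animals, black where the adjusted p was under 0.05 and grey where not, and as circles for females and triangles for males. All points lie above 0, and Gbp9 has the widest gap between the sexes (0.90 and 2.02).

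Other rows at the 2 loci were examined in the same fit. Gbp11, a transcribed pseudogene in RefSeq, averaged 0.46 ± 0.14 CPM in GFP and 1.07 ± 0.59 CPM in GFP-GR100 (SD, n = 4 each), with a log2 fold change of 1.14 (SE 0.32) and an adjusted p of 0.1. An overlapping row named GBP11 had a log2 fold change of 1.35 and an adjusted p of 0.107. Of the 4 rows between the members or within 100 kb of a cluster, 3 were tested and none was called. Mir6381, a microRNA row inside Gbp2 on the opposite strand, shares 24 exon bases with it and had a log2 fold change of 0.79 (adjusted p 0.366). Ccbl2, a kynurenine aminotransferase gene beside the chromosome 3 members, was at 4.48 ± 0.51 CPM in GFP and 4.66 ± 0.28 CPM in GFP-GR100, a log2 fold change of 0.06 (SE 0.12). Abcg3, a transporter gene beside the chromosome 5 members, went from 0.33 ± 0.03 to 0.57 ± 0.17 CPM without passing (log2 fold change 0.76, adjusted p 0.235). Gm24097 had too few reads to test.

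The signalling genes upstream of the family were taken from lists chosen with earlier results of these data known, so their counts are descriptions. In the interferon gamma list 2 of 11 tested genes rose and none fell, and the median log2 fold change was 0.016, set beside 2.19% called higher among all genes. Irf8, a partner of IRF1 in myeloid cells, went from 5.98 ± 0.98 to 15.03 ± 1.20 CPM (adjusted p 7.96e-05). Nlrc5, the transactivator of MHC class I genes, went from 1.52 ± 0.78 to 7.91 ± 1.88 CPM (adjusted p 0.0175). Irf1, the factor that drives several Gbp genes after interferon gamma, was at 6.996 ± 1.95 and 10.04 ± 1.22 CPM and did not pass (log2 fold change 0.52, adjusted p 0.112; named although outside the naming rule). Ifng, which encodes interferon gamma, had 2 reads in GFP 3, 4 in GFP-GR100 3 and 2 in GFP-GR100 4. It had none in the other libraries and was not tested.

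In the type I interferon list 4 of 8 tested genes rose, with a median log2 fold change of 0.65. Irf9, the DNA-binding subunit of the ISGF3 complex that binds the ISRE, went from 11.7 ± 1.72 to 45.3 ± 5.54 CPM (adjusted p 7.93e-06). Stat2, another subunit of it, went from 21.6 ± 1.49 to 45.8 ± 3.42 CPM (adjusted p 2.48e-05). Usp18, the protease that removes ISG15 and damps the receptor, went from 2.02 ± 1.02 to 25.9 ± 2.91 CPM (adjusted p 0.00582). In the GFP libraries Usp18 and Irf7 had the order of the Gbp members, Usp18 at 2.46, 1.63, 3.17 and 0.81 CPM and Irf7 at 5.41, 3.61, 8.19 and 1.94 CPM (Irf7 named although outside the naming rule). Ifnb1, which encodes interferon beta, had 4 reads in GFP-GR100 3 and none in any other library, and was not tested.

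The immunity-related GTPases work on the same vacuoles as the Gbp proteins. The list of 9 tested genes also holds Gvin1, a very large GTPase outside that family (named although outside the naming rule). Of these 9 genes 2 rose and none fell, and their median log2 fold change was 1.31, with 9 of 9 positive. Irgm1, a regulator of the other members on host membranes, went from 14.2 ± 4.89 to 43.3 ± 4.69 CPM (adjusted p 0.00817). Gm12250 went from 0.51 ± 0.26 to 1.53 ± 0.27 CPM (adjusted p 0.0176). Their summed level was 54.5, 23.4, 68.1 and 23.8 CPM in the GFP libraries and 107, 124, 135 and 114 CPM in the GFP-GR100 libraries. GFP 1 and GFP 3 were thus again above GFP 2 and GFP 4, and this held in 8 of the 9 genes, all but Gvin1, as in 7 of the 8 Gbp members.

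Among genes downstream of the Gbp proteins, 3 of 8 inflammasome genes rose, with a median log2 fold change of 0.89. Gsdmd, the pore-forming gasdermin D, went from 2.29 ± 0.58 to 4.60 ± 0.32 CPM (adjusted p 0.00644). Casp4, the caspase that senses lipopolysaccharide, went from 0.44 ± 0.23 to 1.40 ± 0.17 CPM (adjusted p 0.0101). Pycard, the adaptor ASC, went from 2.41 ± 0.92 to 4.66 ± 0.60 CPM (adjusted p 0.0314). In 6 of these 8 genes the GFP libraries had the order of the Gbp members. Of 15 genes that mark or ubiquitylate vacuoles and target Gbp proteins to them, 2 rose, Trim21 (2.56 ± 0.50 to 7.62 ± 0.78 CPM, adjusted p 0.000186) and Lgals3, which encodes galectin-3 (0.89 ± 0.48 to 2.26 ± 0.50 CPM, adjusted p 0.0303). The median log2 fold change of these 15 was -0.13.

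The enzymes that attach and trim the prenyl lipid were not called, with 0 of 6 past the threshold and a median log2 fold change of -0.17. Rce1, the protease with the smallest p, had -0.22 (adjusted p 0.294). Of 12 other genes of the dynamin superfamily 2 rose and none fell, with a median of -0.05. These were the interferon-inducible Mx2, from 1.29 ± 0.14 to 9.38 ± 1.14 CPM (adjusted p 2.56e-06), and Mx1, from 0.58 ± 0.34 to 8.53 ± 1.74 CPM (adjusted p 0.00266). Neither the atlastins, the closest relatives of the Gbp proteins outside the family, nor the classical dynamins and mitochondrial fusion genes were called.

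The genes whose profile was most like the mean of the 8 members over the 8 libraries were sought among 13701 tested genes. These were genes outside the listed members with a mean of at least 1 CPM. Genes with gene-model, clone or pseudogene names were left out. Likeness was the root-mean-square (RMS) distance of log2 CPM centred on each gene's mean. The nearest were Csf2rb at 0.127, Ccl6 at 0.142, Naip2 at 0.203, Myo1g at 0.215 and Cd180 at 0.216. Csf2rb, a cytokine receptor subunit, had 1.65, 0.80, 1.49 and 0.71 CPM in the GFP libraries and 2.64, 3.71, 3.06 and 3.83 CPM in the GFP-GR100 libraries. It had the high GFP 1 and GFP 3 of the family, which a choice by likeness over these same libraries favours.

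The members also differed among themselves. The closest pair was Gbp7 with Gbp9, at an RMS distance of 0.23 although they lie on different chromosomes, and the farthest was Gbp3 with Gbp8, at 1.02. The nearest gene to each member was listed after the values had been seen. It was Trim30a for Gbp3 (0.14), Ifit2 for Gbp7 (0.142), Il1a for Gbp5 (0.234), Irgm2 for Gbp2 (0.165), Cd33 for Gbp9 (0.17), Iigp1 for Gbp6 (0.184), Ccl6 for Gbp4 (0.201) and Evi2b for Gbp8 (0.268). The 2 members with the widest spread in GFP mice, Gbp6 and Gbp2, were thus each nearest to an immunity-related GTPase. Distance itself depends on that spread and on the order of the libraries, so this is a description only.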

How the data were processed

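RNA from cortex and hippocampus was prepared with a stranded total RNA kit and sequenced as paired ends, per the labels' protocols. The submitters' processing notes name CASAVA, TopHat2 2.1.0, DESeq2 and R 3.4.1, and build mm10. How reads were counted is not stated by the labels. The authors deposited gene counts and RPKM for each library, per the file headers. From the counts, edgeR 4.0.16 in R 4.3.3 was run with TMM scaling, filterByExpr (minimum count 10, minimum total 15), sex as covariate and the robust quasi-likelihood test. p-values were adjusted by Benjamini-Hochberg over 20987 genes, with 460 genes higher and 68 lower at 0.05, and 3274 at an unadjusted p under 0.05. The sex difference was an interaction term. Alternatives used DESeq2 1.42.0 and limma 3.58.1, the latter also on log2 of the deposited RPKM plus 0.1 or 1. Log2 CPM for likeness used a prior count of 2. The script was tested on simulated data. p-values measure the spread between libraries of separately weighed brains.

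Named genes were all members, other Gbp rows, neighbours within 100 kb, up to 3 called genes per list with the smallest p (or the 1 with the smallest p) and the 5 most alike. Members and lists were chosen with earlier results of these data known. A listed gene of the interferon gamma list is not reported here and is left out of its counts. Gene names, loci and transcripts came from the table, GENCODE M21 and RefSeq, and promoter sequences from RefSeq.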

Additional observations from a re-analysis of the deposited data

How the results depend on the processing

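The 8 members gave 143 values under up to 18 alternatives each, and all 143 kept a log2 fold change above 0. Of these, 129 kept their side of the threshold, 11 newly passed it and 3 no longer did. Gbp3, Gbp7 and Gbp9 were called in every alternative. Between 3 and 7 members were called, 7 of them without a filter on low counts. That setting called 1168 genes higher and 361 lower, and DESeq2 called 724 and 200. Without the filter the log2 fold changes hardly moved (Gbp2 0.68 against 0.67, Gbp6 2.07 against 2.05), while adjusted p in edgeR's test fell far. It also called Gbp2, whose groups overlap. The calls of that setting, including those of the summed members, are therefore not taken as evidence of a rise. Genes called lower numbered 36 with a minimum mean of 1 CPM, 32 and 30 on log2 RPKM with pseudocounts of 0.1 and 1, 35 without sex, 226 with the rRNA share and 115 without GFP 3 and GFP-GR100 4. With each library left out, 304 to 514 genes were higher, 19 to 77 lower and 3 to 5 members called. The lowest count of higher genes came without GFP-GR100 2. The sex difference was called for 1353 genes and 1 member without a filter, for 567 and 1 with DESeq2, and for 1 to 828 genes with each library left out, against 11 in the reported fit. The log2 fold change of the summed chromosome 3 members was 1.597 without a filter, 1.62 at a minimum of 1 CPM and 1.40 to 1.90 with each library left out, and that of chromosome 5 was 1.72 without a filter, where it passed, and 1.46 to 2.06 with each library left out. On log2 of RPKM plus 1, which compresses low values, Gbp4, Gbp5, Gbp6 and Gbp9 had 0.59, 0.65, 1.184 and 0.82. For the other settings the cause was not tested. No paired analysis was possible because the library numbers follow accession order and tie no animals together. Precision is limited by 2 animals per sex and group, and for Gbp8 by its 13 to 97 reads.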
